A study of Mus musculus with 28 samples.

Results

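Late gains and losses of gene expression were described in mouse fibroblasts carrying Hnf4a and Foxa3, with established induced hepatocyte-like (iHep) cells set against the same kind of cells at 48 h. The comparison used 7 of the 28 RNA-seq libraries of the series, namely iHep replicates 2 to 6 (5 libraries) and both libraries of cells at 48 h. Libraries were taken by title and by library type, as read from the small nuclear RNA Rn7sk. Levels are given in CPM, the reads of a gene scaled to the library's total and adjusted between libraries (TMM). Rn7sk lay between 37.0 and 71.4 CPM in the 5 iHep libraries and at 21.7 and 30.7 CPM at 48 h. It lay at 0.945 CPM in iHep replicate 1, which is therefore shown beside the others and did not enter the comparison. Both stages began as C57BL/6 embryonic fibroblasts (MEF) prepared at 13.5 days post coitum and infected with pGCDNsam retroviruses carrying Hnf4a and Foxa3 cDNA. The labels give no day for the iHep stage. Untreated MEF (2 libraries) and hepatocytes isolated from 10-week-old C57BL/6 mice (Hep, 2 libraries) are given as levels beside the comparison. Cells with an empty virus or with Hnf4a alone were not analysed here, and reads from the vectors cannot be told apart from reads of the cells' own Hnf4a and Foxa3 genes.

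Hnf4a is a nuclear receptor and a central activator of hepatocyte genes. Foxa proteins are forkhead factors that can bind sites in closed chromatin and are known to act before liver genes are switched on. Fibroblasts given Hnf4a with a Foxa factor are known to lose fibroblast features and to become epithelial cells with hepatocyte features, in a course that includes a mesenchymal-to-epithelial transition.

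The libraries held 25580687 to 30178320 gene-assigned reads in iHep cells and 39656331 to 43637300 at 48 h. Pearson's r of log2 CPM lay between 0.959 and 0.989 among the 5 iHep libraries, at 0.998 between the 48 h libraries, and between 0.78 and 0.808 across the stages. The 48 h libraries differed beyond counting noise (chi-square per gene with a mean of 21.7 and a median of 1.49 over 12904 genes). They were kept as 2 samples, though 2 preparations of 1 culture could differ in this way too. The labels do not say whether libraries came from separate cultures, and p-values then measure only the spread between these libraries.

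The labelled cell types were checked against marker genes. Summed over 10 hepatocyte markers, iHep libraries held 17451 to 21089.6 CPM and 48 h libraries 5.09 to 6.7 CPM, against 204246 CPM in Hep. Apoa1 alone averaged 17749 CPM in iHep cells, and 4 of the 10 markers averaged 1 CPM or more there. Summed over 10 fibroblast markers, iHep libraries held 69.6 to 209 CPM and 48 h libraries 26390.2 to 27414 CPM. Summed over 5 epithelial markers, iHep libraries held 923 to 1328 CPM and 48 h libraries 14.6 to 15.4 CPM. The iHep cells thus carried few of the hepatocyte markers at more than trace level, and cells at 48 h carried the fibroblast markers at a high level, as MEF did (38040.0 CPM). In bulk libraries, fewer cells of a type and less RNA per cell cannot be told apart.

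Of 15164 genes tested, 7437 differed between iHep cells and cells at 48 h at a Benjamini-Hochberg adjusted p under 0.05 (49.0%) by edgeR's quasi-likelihood test, with 3579 higher (23.6%) and 3858 lower (25.4%) in iHep cells. At least 4-fold changes passed the test in 1227 genes that rose (8.09%) and in 1833 that fell (12.1%). The levels of the stages did not overlap for 9993 genes (65.9%). The median log2 fold change (iHep over 48 h) of all genes tested was 0.01. Since about 49.0% of all genes were called, counts of called members below are read against these percentages. Members with too few reads were not tested and enter neither the counts nor the medians. These included 10 of 28 plasma carriers, 14 of 30 clotting and complement genes and 10 of 17 bile acid genes. Also untested were 10 of 26 amino acid, 8 of 28 xenobiotic, 11 of 25 intestinal and 6 of 10 lung genes. None of these averaged above 0.558 CPM at either stage. A gene could be tested through reads at 1 stage alone. Without 48 h replicate 1 or replicate 2 the test called 4139 and 4131 genes, so counts of modest changes rest on both 48 h libraries, while 885 and 906 rises and 1495 and 1501 falls of at least 4-fold were still called.

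**Figure D1:**
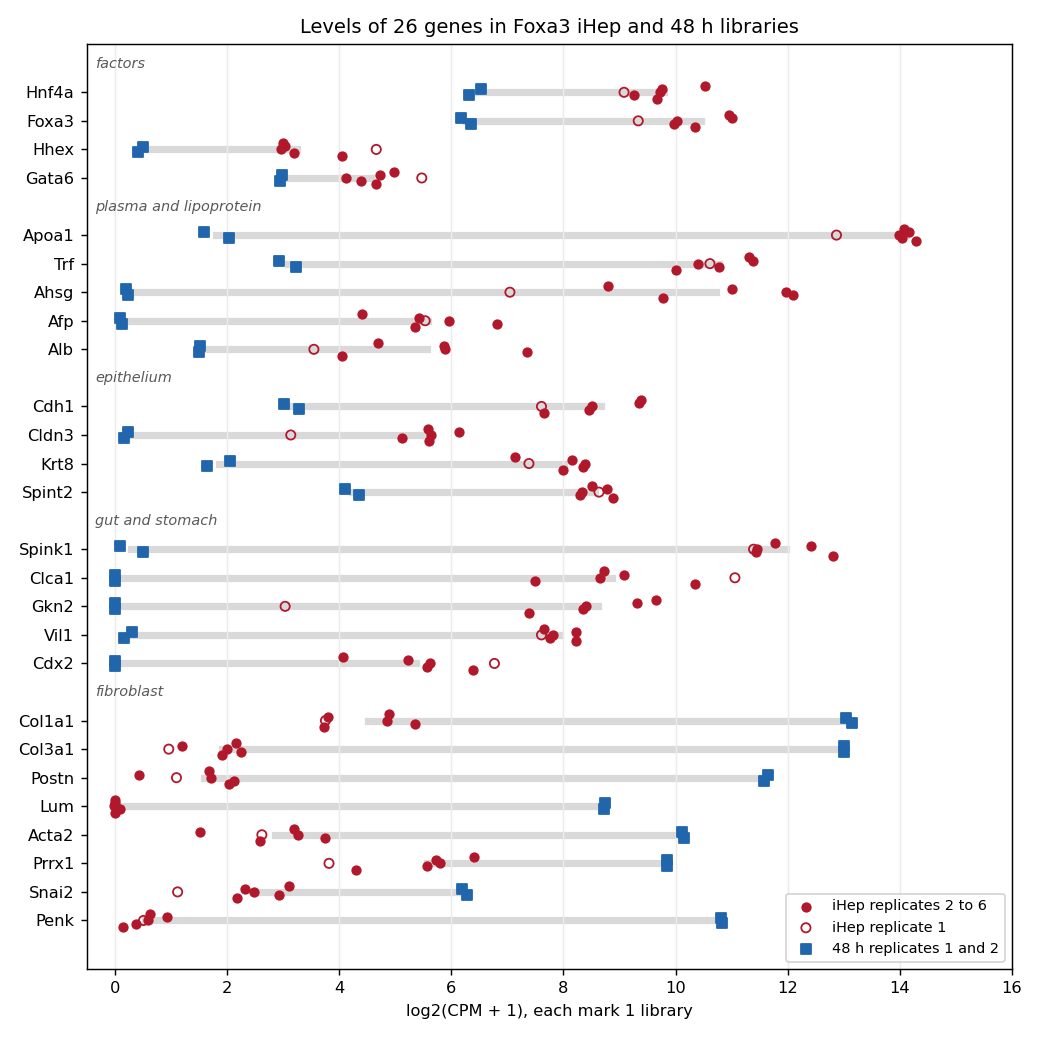
Levels of 26 genes in each library, in CPM on a log scale (log2(CPM + 1)), with iHep replicates 2 to 6 as filled circles, iHep replicate 1 as an open circle and the 48 h libraries as squares, and with grey bars between the group means. Liver, epithelial and gut genes averaged higher in the iHep libraries than at 48 h, as with Apoa1 (17749 CPM on average in iHep cells, 2.55 CPM at 48 h). Their levels at 48 h were not all near 0, with no read for Cdx2 and an average of 7.89 CPM for Cdh1. Matrix genes such as Col3a1 show the opposite order (2.86 CPM in iHep cells, 8243 CPM at 48 h).

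The introduced factors were higher in iHep cells than at 48 h. Hnf4a lay at 1472, 867, 847, 610.4 and 817 CPM in iHep replicates 2 to 6 and at 91.0 and 78.4 CPM at 48 h. Foxa3 lay at 1992, 2063, 1038, 1001 and 1294 CPM in the iHep libraries and at 70.7 and 80.1 CPM at 48 h. Every iHep library stood above both 48 h libraries for either gene, with log2 fold changes of 3.47 ± 0.39 (SE; adjusted p = 0.00027) for Hnf4a and 4.32 ± 0.43 (adjusted p = 0.00016) for Foxa3. For scale, Hep averaged 1051 CPM of Hnf4a and 164 CPM of Foxa3. Foxa1 averaged 0.081 CPM in iHep cells and 0.126 CPM at 48 h, Foxa2 had no read in the 5 iHep libraries and averaged 0.0798 CPM at 48 h, and neither passed the filter on low counts.

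Promoter windows of a few genes on which the results turn are printed to show the letters that Foxa, Hnf4 and Hnf1 proteins are known to bind, namely a forkhead motif (TGTTTGC or TGTTTAC), an HNF4-type motif (CAAAGTCCA or CAAAGTTCA) and an HNF1-type motif (GTTAAT, any base, then ATT), each searched on both strands in the 250 bases before the start. Each line holds the 120 bases before the gene's start on its own strand, 5′ to 3′, from RefSeq (GRCm38.p6), with motif matches in capitals.
Apoa1 (chr9:46228510-46228629, plus strand): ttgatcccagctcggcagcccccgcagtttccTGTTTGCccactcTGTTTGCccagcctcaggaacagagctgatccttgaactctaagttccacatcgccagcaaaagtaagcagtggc
Ahsg (chr16:22891895-22892014, plus strand): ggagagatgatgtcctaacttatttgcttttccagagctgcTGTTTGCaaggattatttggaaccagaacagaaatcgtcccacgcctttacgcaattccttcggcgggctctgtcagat
Afp (chr5:90490594-90490713, plus strand): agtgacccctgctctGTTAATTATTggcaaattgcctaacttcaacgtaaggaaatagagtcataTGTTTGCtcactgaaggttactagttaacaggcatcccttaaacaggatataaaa
Cdx2 (chr5:147307250-147307369, minus strand): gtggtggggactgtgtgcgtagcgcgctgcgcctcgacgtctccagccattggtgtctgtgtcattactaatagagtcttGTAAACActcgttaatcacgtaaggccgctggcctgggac
Col3a1 (chr1:45311418-45311537, plus strand): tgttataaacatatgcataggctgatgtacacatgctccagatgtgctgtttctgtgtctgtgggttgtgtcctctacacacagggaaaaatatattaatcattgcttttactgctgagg
Apoa1 holds the forkhead motif at 88 and 75 bases before its start, Ahsg at 79 bases, Afp at 55 bases beside an HNF1-type motif at 105 bases, and Cdx2 at 40 bases on the opposite strand. None of the 3 motifs was found in the Col3a1 window. Of 27025 genes with such a window, 8.22% hold the forkhead motif, 0.836% the HNF4-type motif and 0.44% the HNF1-type motif. A match is a description of these letters and no evidence of binding. The 5 genes were picked by hand, so they do not show how common a motif is among rises or falls. Only 497 of the 690 genes with at least 4-fold rises and 10 CPM in iHep cells have a window, under the 80% a comparison over them would need, so none is given.

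Liver transcription factors rose in part. Of 19 tested members of the list, 11 rose and 1 fell, with a median log2 fold change of 2.21 against 0.01 over all genes. Hhex, a homeobox factor of early liver budding, lay at 6.94, 7.16, 6.80, 8.12 and 15.6 CPM in iHep replicates 2 to 6 and at 0.415 and 0.337 CPM at 48 h. All iHep libraries were above both 48 h libraries (log2 fold change 4.58 ± 0.52, adjusted p = 0.00027). Gata4, a zinc finger factor of the foregut, averaged 10.2 ± 5.63 CPM (SD, n = 5) in iHep cells and 0.455 ± 0.0982 CPM (n = 2) at 48 h (log2 fold change 4.49 ± 0.78, adjusted p = 0.0023). Nr1i2, the xenobiotic receptor PXR, averaged 19.3 ± 11.4 CPM in iHep cells and 0.712 ± 0.291 CPM at 48 h (4.78 ± 0.78, adjusted p = 0.0017). Nr1h3, the oxysterol receptor LXR alpha, averaged 20.0 ± 6.15 CPM and 1.73 ± 0.545 CPM in the same order (3.55 ± 0.41, adjusted p = 0.0003). Gata6 rose by 1.81 ± 0.27 on the log2 scale and reached 23.3 CPM in iHep cells, close to the 19.8 CPM of Hep. Prox1, a regulator of hepatocyte migration and fate, averaged 4.97 CPM in iHep cells and 0.416 CPM at 48 h (adjusted p = 0.0044). 

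Some regulators of mature hepatocytes did not pass the test as rises. Cebpa, which drives hepatocyte maturation, lay at 34.7, 48.9, 26.7, 24.1 and 42.1 CPM in iHep replicates 2 to 6 and at 20.8 and 24.4 CPM at 48 h, so the lowest iHep library lay within the 48 h range (log2 fold change 0.67 ± 0.30, adjusted p = 0.094), against 2137 CPM in Hep. Cebpb averaged 39.1 CPM in iHep cells and 38.0 CPM at 48 h (adjusted p = 0.75), and Ppara 5.60 and 3.18 CPM in the same order (adjusted p = 0.19). Rxra, the partner of many nuclear receptors, was the member that fell, with 89.8 ± 22.1 CPM in iHep cells and 156 ± 6.45 CPM at 48 h (log2 fold change -0.77 ± 0.24, adjusted p = 0.028). That call was lost without iHep replicate 3 or 5, without either 48 h library and in a fit of all 28 libraries (adjusted p between 0.05 and 0.15).

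Genes of secreted liver proteins had the highest median change of all lists. Of 18 tested members among plasma carriers and the albumin family, 14 rose and 1 fell, with a median log2 fold change of 6.60. Ahsg, the serum glycoprotein fetuin A, lay at 441, 2056, 4026, 4391 and 873 CPM in iHep replicates 2 to 6 and at 0.153 and 0.169 CPM at 48 h. The groups stood far apart, while the iHep libraries themselves varied widely (log2 fold change 13.83 ± 1.62, adjusted p = 0.00033). Trf, the iron carrier transferrin, lay at 2539.6, 2665, 1347, 1746 and 1029 CPM in iHep cells and at 6.64 and 8.38 CPM at 48 h (7.98 ± 0.60, adjusted p = 3.9e-05). Afp, the fetal serum protein, lay at 20.2, 42.1, 61.3, 111 and 39.6 CPM in iHep cells and at 0.0656 and 0.0964 CPM at 48 h (adjusted p = 0.00024), and its iHep mean of 54.8 CPM stood above the 1.41 CPM of Hep. Alb, albumin, lay at 24.8, 57.1, 57.9, 162 and 15.6 CPM in iHep cells and at 1.86 and 1.83 CPM at 48 h, against 146198 CPM in Hep. Albumin was thus above 48 h in every iHep library and uneven among them, with a log2 fold change of 5.12 ± 1.07 (adjusted p = 0.0054) that was 4.42 without iHep replicate 5. The near-identical alpha-1-antitrypsin genes share reads, so the split among them is uncertain; Serpina1b averaged 2541 ± 1089.9 CPM in iHep cells and 0.443 ± 0.225 CPM at 48 h (12.51 ± 0.98, adjusted p = 4.8e-05, 13.13 without 48 h replicate 2), and Serpina1c averaged 323 CPM in iHep cells with no read at 48 h, at least 9365-fold higher than the level of 3 counts over both 48 h libraries. Serping1, the C1 inhibitor, was the member that fell, with 2.26 ± 0.58 CPM in iHep cells and 24.0 ± 0.775 CPM at 48 h (-3.38 ± 0.26, adjusted p = 4.1e-05). 

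Clotting and complement genes divided. Of 16 tested members 11 rose and 4 fell, with a median of 3.77. Fgb, the fibrinogen beta chain, lay at 1088, 4377, 1578, 3199.6 and 976 CPM in iHep replicates 2 to 6 and at 0.503 and 1.25 CPM at 48 h, without overlap (log2 fold change 11.35 ± 1.16, adjusted p = 0.00017, 12.14 without 48 h replicate 2). Serpinf2, the plasmin inhibitor, averaged 203 ± 100 CPM in iHep cells and 0.546 ± 0.124 CPM at 48 h (8.55 ± 1.12, adjusted p = 0.00057). Clotting factor F5 averaged 34.5 CPM and complement factor Cfb 104 CPM in iHep cells, against 4.18 and 15.3 CPM at 48 h (adjusted p = 0.0024 and 0.0022). Complement and anticoagulant genes were among the members that fell. C4b averaged 0.564 CPM in iHep cells and 13.8 CPM at 48 h (-4.57 ± 0.56, adjusted p = 0.00041), C1s1 38.8 and 177 CPM (-2.16 ± 0.39, adjusted p = 0.0028, but 0.053 in a fit of all 28 libraries), and the anticoagulant cofactor Pros1 58.5 and 203 CPM (-1.77 ± 0.22) in the same order.

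Lipoprotein genes rose in part. Of 17 tested genes of lipoproteins and lipid carriers 8 rose and 2 fell, with a median of 2.27, and 5 still rose without either 48 h library. Apoa1, which forms high-density lipoprotein particles, lay at 17160.3, 18391, 16284, 16844 and 20068 CPM in iHep replicates 2 to 6 and at 1.99 and 3.11 CPM at 48 h. The iHep libraries were close to each other and far above both 48 h libraries (log2 fold change 12.79 ± 0.42, adjusted p = 1.5e-06), and their mean was 265% of the 6695 CPM in Hep. Apoc2, the activator of lipoprotein lipase, lay at 38.6, 123, 137, 113 and 123 CPM in iHep cells and at 0.0437 and 0.193 CPM at 48 h (adjusted p = 7.4e-05), with replicate 2 lowest. Scarb1, the receptor for high-density lipoprotein, averaged 54.8 ± 5.19 CPM in iHep cells and 27.1 ± 0.281 CPM at 48 h (1.04 ± 0.13, adjusted p = 0.00046). Apoa2 averaged 0.416 CPM in iHep cells and 0.452 CPM at 48 h, against 9214 CPM in Hep (adjusted p = 0.92). Pltp, which moves phospholipids between lipoproteins, averaged 11 CPM in iHep cells and 46.2 CPM at 48 h (-2.05 ± 0.40, adjusted p = 0.004).

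Metabolic genes rose less evenly. Among 20 tested xenobiotic genes 12 rose and 2 fell (median 1.99; 8 and 7 rose without 48 h replicate 1 or 2). Gsta1, a glutathione transferase with near copies that may share its reads, lay at 347, 409.5, 377, 395 and 558 CPM in iHep replicates 2 to 6 and at 0.328 and 0.193 CPM at 48 h, without overlap (log2 fold change 10.64 ± 0.40, adjusted p = 2.9e-06). Aldh1a1, a retinal dehydrogenase, averaged 41.1 ± 14 CPM in iHep cells and 3.01 ± 0.581 CPM at 48 h (3.79 ± 0.47, adjusted p = 0.00042). The drug-metabolising cytochrome Cyp2e1 averaged 0.758 CPM in iHep cells and 0.507 CPM at 48 h, against 6018 CPM in Hep (adjusted p = 0.55). Cyp3a11 averaged 1.62 CPM in iHep cells with no read at 48 h, at least 49.3-fold higher, or 24.9-fold without iHep replicate 3 (adjusted p = 0.016, and 0.07 and 0.068 without 48 h replicate 1 or 2), against 3514 CPM in Hep. Among 7 tested bile acid genes 3 rose and 2 fell. Cyp27a1, which oxidises the side chain of cholesterol, averaged 74.9 ± 34.4 CPM in iHep cells and 0.482 ± 0.0333 CPM at 48 h (7.30 ± 0.70, adjusted p = 0.00013), and the phospholipid transporter Abcb4 averaged 19.6 ± 4.44 and 0.616 ± 0.0871 CPM (5.01 ± 0.35, adjusted p = 2.9e-05). Cyp7b1, of the alternative bile acid route, was lower, at 0.199 CPM in iHep cells and 6.36 CPM at 48 h (-4.95 ± 0.98, adjusted p = 0.0042).

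Among 16 tested genes of amino acid and urea metabolism 9 rose and 4 fell (median 1.22; 4 rose without either 48 h library). Glul, glutamine synthetase, lay at 1502, 1526, 467, 533 and 369 CPM in iHep replicates 2 to 6 and at 44.1 and 42.2 CPM at 48 h. Replicates 2 and 3 stood about 3 times as high as the others (log2 fold change 4.38 ± 0.78, adjusted p = 0.0026). Ahcy, which breaks down S-adenosylhomocysteine, averaged 768 ± 139.7 CPM in iHep cells and 143 ± 3.95 CPM at 48 h (2.45 ± 0.23, adjusted p = 0.00013). Genes of the urea cycle differed among themselves. Cps1, the entry enzyme, averaged 0.187 CPM in iHep cells and 0.429 CPM at 48 h, against 9134 CPM in Hep (adjusted p = 0.46), and Ass1 fell to 13.2 ± 6.66 CPM in iHep cells, against 137 ± 0.402 CPM at 48 h (-3.35 ± 0.40, adjusted p = 0.00037). Asl, which acts after Ass1, averaged 25 CPM in iHep cells and 15.4 CPM at 48 h (0.72 ± 0.22, adjusted p = 0.029), and Nags, which makes the activator of Cps1, 1.26 and 0.0798 CPM (3.95 ± 0.94, adjusted p = 0.0095). Neither was called without 48 h replicate 1 or 2 (adjusted p = 0.17 and 0.13 for Asl, 0.073 and 0.083 for Nags), and Asl was also not called without iHep replicate 3 or 4 (adjusted p = 0.054 and 0.052) or with iHep replicate 1 added (0.054), nor Nags by limma on log2(FPKM + 1) (0.06). Among 14 genes of fatty acid oxidation and ketogenesis 10 rose and none fell (median 1.09). Acsl1, which activates long-chain fatty acids, lay at 874, 812, 498, 649 and 429 CPM in iHep cells and at 22.8 and 25 CPM at 48 h (4.8 ± 0.39, adjusted p = 5.4e-05). Smaller rises were those of Acadm (1.09 ± 0.21) and Hadhb (1.08 ± 0.15), while Cpt1a averaged 151 CPM in iHep cells and 143 CPM at 48 h and Hadha 162 and 168 CPM, neither past the test. Pygl, liver glycogen phosphorylase, averaged 107 ± 29.5 CPM in iHep cells and 4.08 ± 0.966 CPM at 48 h (4.74 ± 0.38, adjusted p = 5.2e-05), one of 4 rises among 6 glucose and fructose genes. Of 23 cholesterol and fatty acid synthesis genes 1 rose and 2 fell (median -0.03), well under the background shares; Me1, malic enzyme, fell to 22 ± 4.74 CPM, against 91.2 ± 3.72 CPM at 48 h (-2.03 ± 0.19, adjusted p = 0.0001).

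Set against hepatocytes, most liver genes of iHep cells remained far below the adult level. Of 193 members of the liver lists with at least 10 CPM in Hep, 35 reached 10% of the Hep level in iHep cells and 118 stayed under 1%, with a median of 0.147%. The median was 16.9% for the fatty acid genes, 4.60% for the transcription factors, 0.249% for lipoprotein genes and 0.0434% for plasma carriers. Foxp1 (185 CPM in iHep cells, 27.1 CPM in Hep), Ephx1 (508 and 315 CPM), Gata6 (23.3 and 19.8 CPM) and Apoa1 stood above Hep, and Glul at 99.5% of it. At 48 h Foxp1 already stood at 361% of Hep, Ephx1 at 62.6% and Gata6 at 34.3%, against 4.88% for Glul and 0.0381% for Apoa1. Rn7sk lay at 1.91 and 6.27 CPM in Hep and at 0.843 and 1.79 CPM in MEF, so these libraries were not of the same type as the 5 iHep libraries, and the part this has in the percentages was not tested.

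**Figure D2:**
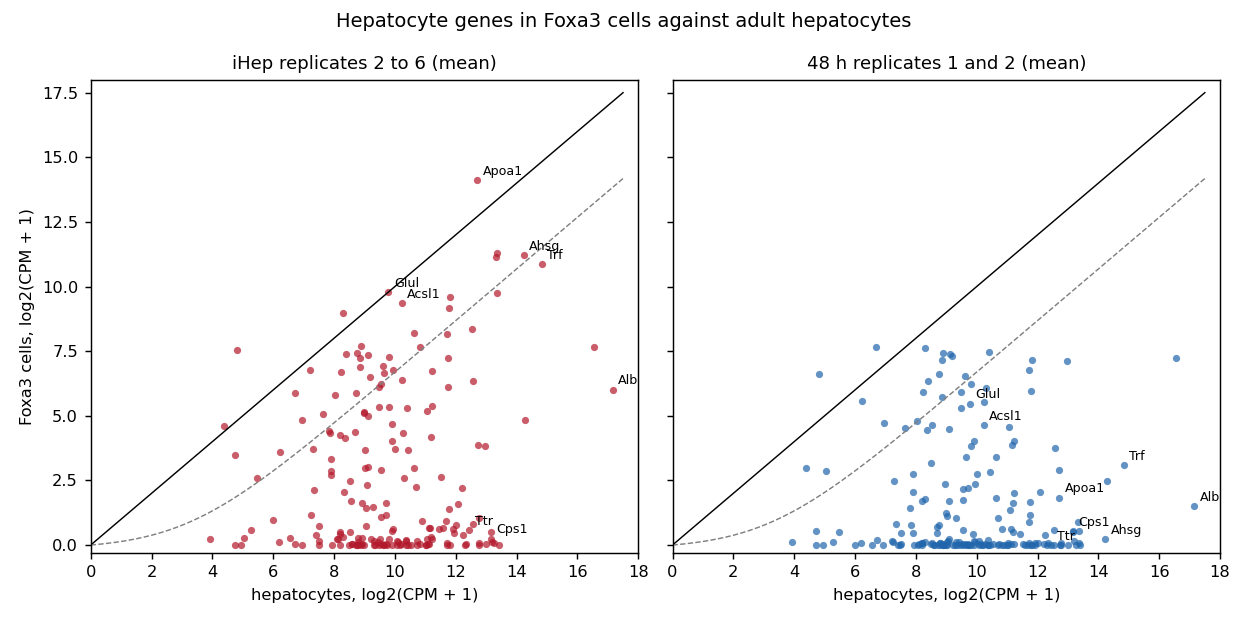
Members of the liver lists as log2(CPM + 1) in iHep cells (left) and in cells at 48 h (right) against their level in adult hepatocytes, 1 point a gene, with a solid line of equal levels and a dashed line at 10% of the hepatocyte level. Of 193 genes 35 lie at or above 10% of Hep in iHep cells, and 118 lie under 1%.

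Epithelial genes rose together. Of 29 tested junction and keratin genes 21 rose and 2 fell, with a median log2 fold change of 3.95. Cdh1, E-cadherin, lay at 663, 649, 365, 348 and 199.6 CPM in iHep replicates 2 to 6 and at 7.06 and 8.72 CPM at 48 h. All iHep libraries were above both 48 h libraries, with replicates 2 and 3 highest (5.85 ± 0.63, adjusted p = 0.00022). The simple-epithelium keratins moved with it, Krt8 averaging 267 ± 78.4 CPM in iHep cells and 2.64 ± 0.741 CPM at 48 h (6.68 ± 0.48, adjusted p = 3.3e-05) and its partner Krt18 391 ± 127 and 3.65 ± 0.187 CPM (6.77 ± 0.45, adjusted p = 2.2e-05). Of the claudins, proteins of tight junctions, Cldn2 averaged 226 ± 75.6 CPM in iHep cells and 0.276 CPM at 48 h, and Cldn3 49.2 ± 12.7 and 0.148 CPM (adjusted p = 1.5e-05 and 9.2e-06), while Cldn1 (5.2 and 5.14 CPM, adjusted p = 0.96) and Cldn7 (1.33 and 0.552 CPM, adjusted p = 0.21) did not pass the test. Among regulators of epithelial identity 13 of 14 rose and none fell (median 4.26; 8 and 10 without 48 h replicate 1 or 2). Spint2, an inhibitor of membrane proteases, averaged 381 ± 70.1 CPM in iHep cells and 17.8 ± 2.35 CPM at 48 h (4.45 ± 0.26, adjusted p = 1.3e-05), Esrp2, an epithelial splicing regulator, 31.3 ± 11.5 and 1.89 ± 0.455 CPM (4.07 ± 0.53, adjusted p = 0.00054), and Klf4 324 ± 58.2 and 52.0 ± 1.71 CPM (2.67 ± 0.23, adjusted p = 7.9e-05). Cdh17, the liver-intestine cadherin, went the other way, with 1.42 ± 0.976 CPM in iHep cells and 11.8 ± 0.796 CPM at 48 h (-3.03 ± 0.61, adjusted p = 0.0046, but 0.07 in a fit of all 28 libraries), and so did the laminin chain Lama3 (0.509 and 4.33 CPM, adjusted p = 0.00048).

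Genes of intestine and stomach were among the largest rises. Of 14 tested intestinal genes 8 rose and 3 fell (median 4.05; 5 rose without either 48 h library). Cdx2, a master regulator of intestinal identity, lay at 15.7, 36.6, 48.0, 46.3 and 83.0 CPM in iHep replicates 2 to 6, with no read at 48 h, at least 1323-fold higher (adjusted p = 0.00034). It had no read in MEF or Hep and lay at 108 CPM in iHep replicate 1. Vil1, villin of the brush border, lay at 199.6, 296, 223, 216 and 296 CPM in iHep cells and at 0.24 and 0.12 CPM at 48 h (log2 fold change 10.39 ± 0.41, adjusted p = 3.5e-06, 10.98 without 48 h replicate 1). Tff3, a trefoil peptide of goblet cells, averaged 417 ± 234 CPM in iHep cells, and 1 read of it was counted at 48 h (adjusted p = 6.9e-05). Cdh17, Anpep and Dpp4 of this list fell, the brush-border peptidase Anpep averaging 0.591 CPM in iHep cells and 24.9 CPM at 48 h (-5.38 ± 0.51, adjusted p = 0.00012). The intestinal markers Sis and Fabp2 averaged 0.00674 and 0.209 CPM in iHep cells and did not pass the filter on low counts. The 5 intestinal markers summed to 216 to 382 CPM in iHep cells and 11.4 to 12.5 CPM at 48 h.

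Of 11 tested stomach genes 8 rose and 1 fell (median 3.89; 4 rose without either 48 h library). Gkn2, a gastrokine of stomach surface cells, lay at 802, 636, 337, 324 and 166 CPM in iHep replicates 2 to 6 and had no read at 48 h, at least 13494-fold higher (adjusted p = 0.00018), while iHep replicate 1 held 7.20 CPM. Tff1, a gastric trefoil peptide, averaged 113 ± 99.9 CPM in iHep cells with no read at 48 h, at least 3281-fold higher (adjusted p = 0.0016). Sox2 was the member that fell, with no read in the 5 iHep libraries and 1.01 and 1.16 CPM at 48 h, at least 52.1-fold lower (adjusted p = 0.0039). Of 10 lung genes only 4 were tested, and these rose (2 in a fit of all 28 libraries). The other 6, Sftpb and Sftpc among them, averaged at most 0.177 CPM at either stage and did not pass the filter on low counts. Scgb1a1, the club cell secretoglobin, averaged 12.8 ± 12.1 CPM in iHep cells with no read at 48 h, at least 377-fold higher (adjusted p = 0.0045, but 0.051 in a fit of all 28 libraries). Without iHep replicate 2, its highest library at 33.3 CPM, Scgb1a1 was at least 222-fold higher. Of 16 bile duct and progenitor genes 6 rose and 5 fell (median 0.91; 3 and 2 rose without 48 h replicate 1 or 2). Sox9, a duct and progenitor factor, averaged 124 ± 18.3 CPM in iHep cells and 22.1 ± 0.0991 CPM at 48 h (2.52 ± 0.20, adjusted p = 4.7e-05), and the tetraspanin Tspan8 291 ± 27.8 and 2.95 ± 0.365 CPM (6.65 ± 0.21, adjusted p = 1.4e-06). Lgr5, a stem cell receptor, fell to 0.411 ± 0.196 CPM in iHep cells, against 26.7 ± 0.312 CPM at 48 h (-5.99 ± 0.39, adjusted p = 2.1e-05).

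Matrix genes fell together. Of 19 tested collagen genes 15 fell and none rose (median -3.58). Col3a1 lay at 3.47, 1.28, 3.0, 3.78 and 2.78 CPM in iHep replicates 2 to 6 and at 8232 and 8253 CPM at 48 h (log2 fold change -11.47 ± 0.40, adjusted p = 2.6e-06). Col1a1 lay at 28.5, 12.9, 27.9, 39.7 and 12.2 CPM in iHep cells and at 8429 and 9082 CPM at 48 h (-8.47 ± 0.49, adjusted p = 1.2e-05), and Col1a2 averaged 11.9 ± 8.80 CPM in iHep cells and 7644 ± 254 CPM at 48 h (-9.30 ± 0.84, adjusted p = 9.7e-05). The fibrillar collagens named here were low in every iHep library and high at 48 h. The basement membrane chain Col4a1 fell less, to 266 ± 68.6 CPM, against 810.3 ± 31.9 CPM at 48 h (-1.58 ± 0.24, adjusted p = 0.0012), and Col18a1 averaged 83.2 ± 51.5 CPM in iHep cells and 78.2 ± 5.20 CPM at 48 h (adjusted p = 0.9). 

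Of 32 tested genes of collagen processing and other matrix proteins 28 fell and none rose (median -3.35). Eln, elastin, had no read in 3 iHep libraries and 0.032 and 0.256 CPM in replicates 3 and 6, against 827 and 1010.4 CPM at 48 h (adjusted p = 5.3e-06). Postn, periostin, lay at 2.19, 0.352, 2.28, 3.35 and 3.11 CPM in iHep cells and at 3216 and 3046 CPM at 48 h (-10.42 ± 0.65, adjusted p = 1.6e-05). Lox, which cross-links collagen, averaged 70.6 ± 31.3 and 2885 ± 8.60 CPM (-5.33 ± 0.38, adjusted p = 3.3e-05), and Fbn1, fibrillin, 8.17 ± 5.66 and 1339.9 ± 24.0 CPM (-7.34 ± 0.64, adjusted p = 7.7e-05) in the same order. Fn1, fibronectin, which hepatocytes also make (2094 CPM in Hep), fell by 1.76 on the log2 scale, to 1857 ± 696 CPM in iHep cells, against 6395 ± 6.20 CPM at 48 h (adjusted p = 0.0059). Timp3, an inhibitor of matrix proteases, averaged 1027 ± 671 CPM in iHep cells and 1137 ± 17.4 CPM at 48 h (adjusted p = 0.88), and the lysyl hydroxylase Plod2 85.6 ± 20.9 and 95.7 ± 5.29 CPM (adjusted p = 0.66). All 10 small leucine-rich proteoglycans fell (median -5.53). Lum, lumican, had reads in 1 iHep library (0.0663 CPM in replicate 5) and lay at 426 and 424 CPM at 48 h (adjusted p = 1.3e-06), while Bgn, biglycan, kept 144 ± 36.7 CPM in iHep cells, against 3348 ± 15.1 CPM at 48 h (-4.52 ± 0.25, adjusted p = 1.1e-05).

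Fibroblast surface and contractile genes fell in 19 of 21 cases (median -4.48). Acta2, smooth muscle actin, lay at 8.12, 1.86, 8.61, 12.5 and 5.02 CPM in iHep replicates 2 to 6 and at 1101 and 1134 CPM at 48 h (log2 fold change -7.25 ± 0.57, adjusted p = 5.1e-05). Pdgfra, a growth factor receptor of fibroblasts, averaged 11.5 ± 4.03 CPM in iHep cells and 261 ± 0.0691 CPM at 48 h (-4.48 ± 0.28, adjusted p = 1.6e-05). Vim, vimentin, the mesenchymal intermediate filament, lay at 606, 734, 748, 736 and 1246 CPM in iHep cells and at 3062 and 2897 CPM at 48 h. Vimentin thus fell without being lost (-1.85 ± 0.26, adjusted p = 0.00078), against 9.56 CPM in Hep. Ccn2, a target of mechanical signals, was the member that rose, with 514 ± 87.3 CPM in iHep cells and 224 ± 6.24 CPM at 48 h (1.22 ± 0.19, adjusted p = 0.0015, but 0.14 in a fit of all 28 libraries). The falls of vimentin and fibronectin were under 4-fold in libraries where the fibrillar collagens were low.

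Of 26 tested mesenchymal transcription factors 19 fell and 1 rose (median -3.0). Prrx1, a limb mesenchyme factor, lay at 84.0, 51.8, 54.5, 46.3 and 18.8 CPM in iHep replicates 2 to 6 and at 919.5 and 916 CPM at 48 h (log2 fold change -4.14 ± 0.43, adjusted p = 0.00018). The repressors of E-cadherin fell by different amounts, with log2 fold changes of -2.94 ± 0.25 for Snai1, -3.79 ± 0.28 for Snai2, -3.38 ± 0.58 for Zeb2, -1.67 ± 0.17 for Twist1 and -1.0 ± 0.12 for Zeb1 (adjusted p between 3.5e-05 and 0.0021). Zeb1 kept 44.3 ± 4.12 CPM in iHep cells, against 90.2 ± 2.09 CPM at 48 h. Runx1 was the member that rose, with 79.2 ± 7.74 CPM in iHep cells and 19.6 ± 1.03 CPM at 48 h (2.04 ± 0.15, adjusted p = 3.5e-05), and its relative Runx2 averaged 33.4 ± 6.51 and 39.0 ± 1.80 CPM (adjusted p = 0.43).

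**Figure D3:**
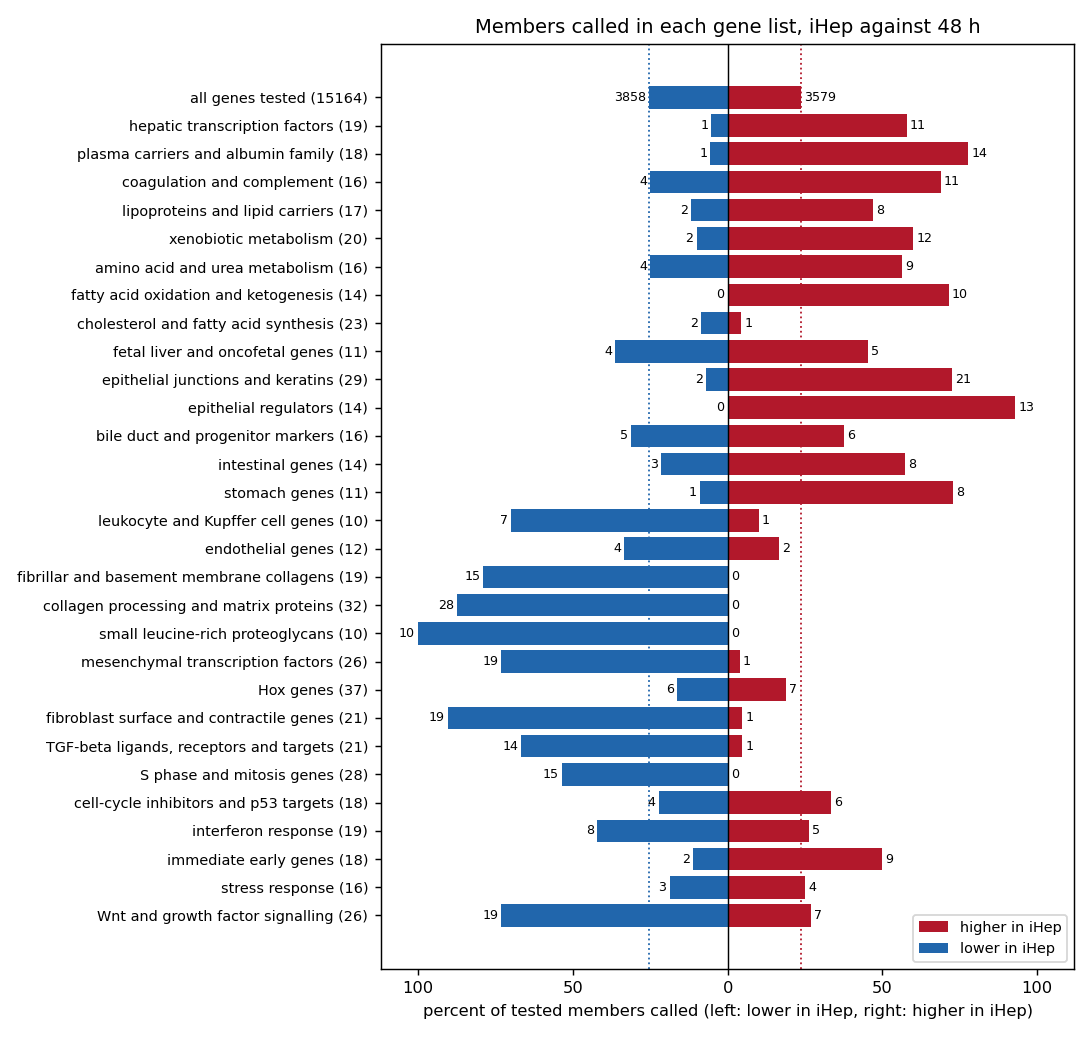
Percentage of tested members that rose (to the right) and fell (to the left) in iHep cells against 48 h, for each gene list with at least 10 tested members, with dotted lines at the percentages over all 15164 genes (23.6% higher, 25.4% lower). Epithelial regulators rose in 13 of 14 cases and small leucine-rich proteoglycans fell in 10 of 10, while cholesterol synthesis genes stayed under both lines.

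Hox genes, which mark position along the body axis, moved in both directions, with 7 of 37 rising and 6 falling, below the shares of 23.6% and 25.4% over all genes (median 0.45). The 5′ Hoxd genes fell as neighbours. Hoxd13 lay at 1.01, 0.192, 0.941, 0.332 and 0.696 CPM in iHep replicates 2 to 6 and at 237 CPM in both 48 h libraries (log2 fold change -8.52 ± 0.44, adjusted p = 8.1e-06), and Hoxd11 averaged 0.329 ± 0.288 CPM in iHep cells and 41.2 ± 1.79 CPM at 48 h (-6.92 ± 0.64, adjusted p = 0.00011). Hoxd12 had reads in 1 iHep library (0.293 CPM in replicate 6) and 28.8 ± 1.02 CPM at 48 h (adjusted p = 0.00017). Hoxd10 fell by 3.94 (SE 0.77) on the log2 scale (adjusted p = 0.0039), and by 4.94 without iHep replicate 3. Hoxa10 fell by 1.44 (SE 0.18), to 22.6 ± 4.04 CPM in iHep cells, against 62.2 ± 1.38 CPM at 48 h (adjusted p = 0.00049, but 0.065 in a fit of all 28 libraries), while Hoxa9 beside it averaged 23.9 ± 5.26 and 21.2 ± 1.01 CPM (adjusted p = 0.51). The rises included Hoxb4, Hoxc4, Hoxc6 and Hoxd4, whose adjusted p was 0.06, 0.063, 0.12 and 0.097 without 48 h replicate 1. In a fit of all 28 libraries it was 0.14 for Hoxb4, 0.3 for Hoxc4 and 0.096 for Hoxc6. Only 1 and 3 Hox rises were called without 48 h replicate 1 or 2, so the rises rest on both libraries.

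**Figure D4:**
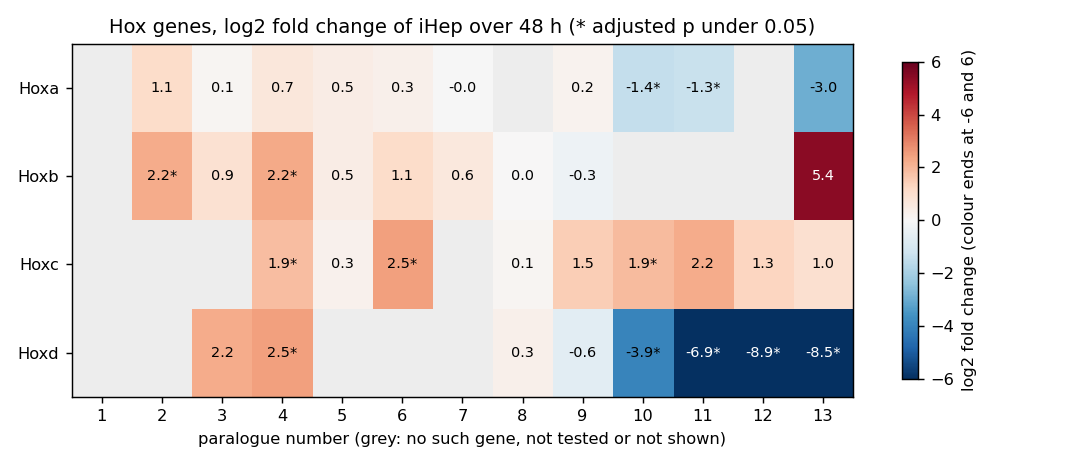
Heat map of the log2 fold change (iHep over 48 h) of tested Hox genes, with the 4 clusters as rows and paralogue groups 1 to 13 as columns, a star for an adjusted p under 0.05 and grey where no gene was tested or none is shown. Hoxd10 to Hoxd13 form the strongest run of falls (-8.52 for Hoxd13), and the rises lie elsewhere.

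Genes of TGF-beta signalling, a pathway that holds cells in the mesenchymal state, fell in 14 of 21 cases and rose in 1 (median -2.43). The falls included ligands and their binding proteins. Tgfb2 averaged 2.48 ± 0.892 CPM in iHep cells and 103 ± 2.74 CPM at 48 h (log2 fold change -5.35 ± 0.31, adjusted p = 1.2e-05), and Tgfb3 15.6 ± 6.27 and 212 ± 11.2 CPM (-3.73 ± 0.35, adjusted p = 0.00011). Of the receptors, Tgfbr3, a co-receptor, fell to 25.4 ± 7.06 CPM in iHep cells, against 190.2 ± 4.42 CPM at 48 h (-2.88 ± 0.26, adjusted p = 8.7e-05), while Tgfbr1 averaged 83.7 ± 18.8 CPM in iHep cells and 85.8 ± 1.11 CPM at 48 h (adjusted p = 0.97) and Tgfbr2 408 ± 23.8 and 439 ± 0.914 CPM (adjusted p = 0.61). The signal carrier Smad3 was the member that rose, with 151 ± 17.3 CPM in iHep cells and 93.4 ± 1.12 CPM at 48 h (0.72 ± 0.14, adjusted p = 0.0041, and 0.051 and 0.052 without 48 h replicate 1 or 2).

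Wnt and growth factor genes were all called, with 7 rising and 19 falling of 26 (median -2.42; 3 and 4 rises without 48 h replicate 1 or 2). Dkk2, a Wnt antagonist, had reads in 1 iHep library (0.0724 CPM in replicate 4) and lay at 318 and 314 CPM at 48 h (adjusted p = 1.4e-06). Axin2, a direct target of Wnt signalling, averaged 1.04 ± 0.942 CPM in iHep cells and 21.0 ± 2.24 CPM at 48 h (log2 fold change -4.29 ± 0.82, adjusted p = 0.0036). Hgf, the growth factor that fibroblasts make for epithelial cells, averaged 0.475 ± 0.161 CPM in iHep cells and 11.9 ± 0.419 CPM at 48 h (-4.62 ± 0.34, adjusted p = 3.6e-05), and Igf1 0.949 ± 0.756 and 71.2 ± 3.12 CPM (-6.21 ± 0.60, adjusted p = 0.00013). The EGF receptor ligands of the list, Areg and Ereg, rose, while the receptor gene Egfr itself fell. Areg, amphiregulin, lay at 110.2, 343, 485, 457 and 609.8 CPM in iHep replicates 2 to 6 and at 3.26 and 4.17 CPM at 48 h (6.78 ± 0.79, adjusted p = 0.00032), and Erbb3, a receptor of the same family, averaged 38.5 ± 12.5 and 0.747 ± 0.0678 CPM (5.71 ± 0.47, adjusted p = 6.3e-05). Among fetal growth genes, Igf2 fell to 217 ± 171 CPM, against 4874 ± 46.8 CPM at 48 h (-4.47 ± 0.63, adjusted p = 0.00083), and Dlk1 to 26.1 ± 5.48 CPM, against 296 ± 15.8 CPM (-3.48 ± 0.19, adjusted p = 1e-05).

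Proliferation genes were lower in iHep cells by small amounts. Of 28 genes of S phase and mitosis 15 fell and none rose, none by 4-fold (median -0.67), and 4 and 5 fell without 48 h replicate 1 or 2. Cdc20, an activator of the anaphase complex, averaged 32.6 ± 11.5 CPM in iHep cells and 93.5 ± 3.73 CPM at 48 h (log2 fold change -1.5 ± 0.28, adjusted p = 0.0032), and Plk1 20.9 ± 8.42 and 61.6 ± 6.66 CPM (-1.54 ± 0.31, adjusted p = 0.0049). Mki67 lay at 150.3, 119, 219, 271 and 152 CPM in iHep replicates 2 to 6 and at 313 and 319 CPM at 48 h, lower in every iHep library without passing the test (-0.77 ± 0.29, adjusted p = 0.056). Among cell-cycle inhibitors and p53 targets 6 rose and 4 fell of 18 (median 0.15; 3 rose without either 48 h library). Mdm2, the p53 target that degrades p53, lay at 618, 607, 658, 515 and 984 CPM in iHep cells and at 118 and 121 CPM at 48 h (2.53 ± 0.28, adjusted p = 0.00027). Trp53inp1, another target, rose by 1.5 ± 0.20 on the log2 scale, whereas Cdkn1a averaged 428 ± 134 CPM in iHep cells and 367 ± 1.06 CPM at 48 h (adjusted p = 0.49), and Cdkn1c fell to 3.46 ± 2.64 CPM, against 85.3 ± 0.442 CPM (-4.60 ± 0.60, adjusted p = 0.00055).

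Interferon response genes split, with 5 of 19 rising and 8 falling (median -0.73; 5 fell without either 48 h library). Mx1, an antiviral GTPase, lay at 54.1, 77.7, 50.3, 28.4 and 42.9 CPM in iHep replicates 2 to 6 and at 0.874 and 0.458 CPM at 48 h (log2 fold change 6.26 ± 0.55, adjusted p = 8.2e-05). Immediate early genes, which respond within minutes to serum or handling, rose in 9 of 18 cases and fell in 2 (median 2.50; 2 and 3 rises without 48 h replicate 1 or 2). Fos lay at 48.1, 723, 30.1, 39.7 and 214 CPM in iHep replicates 2 to 6 and at 7.30 and 7.16 CPM at 48 h, with replicates 3 and 6 far above the other iHep libraries. Its log2 fold change of 4.90 ± 1.62 (adjusted p = 0.037) was 3.55 without iHep replicate 3, and the call was lost without iHep replicate 6 and without either 48 h library (adjusted p = 0.054, 0.16 and 0.17). Myc was steadier, at 133, 241, 180.1, 130.1 and 319 CPM in iHep cells and 14.5 CPM in both 48 h libraries (3.82 ± 0.45, adjusted p = 0.00033). Over list members at 10 CPM or more in iHep cells, the median coefficient of variation among the 5 libraries was 70.3% for immediate early genes, the highest of the 28 lists with at least 3 such members, against 17.0% over 9472 genes. Among 16 stress genes 4 rose and 3 fell (median 0.06), with the chaperone partner Sdf2l1 at 72.6 ± 25 CPM in iHep cells and 8.52 ± 0.215 CPM at 48 h (3.12 ± 0.39, adjusted p = 0.00048) and Hmox1 at 21.8 ± 6.50 and 90.1 ± 3.58 CPM (-2.02 ± 0.26, adjusted p = 0.00051, but 0.23 with iHep replicate 1 added).

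Leukocyte markers were low at both stages. Over 7 leukocyte markers the sum lay between 0 and 0.505 CPM in iHep libraries and between 4.04 and 4.65 CPM at 48 h, against 133 CPM in MEF, and 6 of the 7 fell. Over the longer list of leukocyte genes 7 of 10 fell (4 and 2 without 48 h replicate 1 or 2). Ptprc, the common leukocyte antigen, averaged 0.00674 CPM in iHep cells and 0.207 CPM at 48 h. Cd14, a lipopolysaccharide co-receptor on macrophages and other cells, went against its list with 103 ± 29.2 CPM in iHep cells and 1.34 ± 0.0859 CPM at 48 h (log2 fold change 6.29 ± 0.39, adjusted p = 1.5e-05). Among 12 tested endothelial genes 2 rose and 4 fell. Erg, an endothelial factor, had reads in 1 iHep library (0.096 CPM in replicate 3) and lay at 15.5 ± 0.13 CPM at 48 h (adjusted p = 5.2e-05). Lyve1, a receptor of lymphatic and sinusoidal endothelium, averaged 18.5 ± 14.9 CPM in iHep cells and 0.023 CPM at 48 h (adjusted p = 0.0012), with no call for Pecam1 (1.45 and 0.0656 CPM, adjusted p = 0.068). The part of other cells in these levels was not tested.

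The largest changes were mostly those of genes near 0 at one stage, for which a bound against 3 counts over the group is given in place of a fitted fold. On the gain side stood Smgc, a submandibular gland mucin, with 141, 1675, 587, 630.3 and 508 CPM in iHep replicates 2 to 6 and no read at 48 h, at least 21188-fold higher (adjusted p = 0.00062), or at least 13667-fold without iHep replicate 3. Clca1, a secreted goblet cell protein, lay at 422, 543, 400.0, 178 and 1305 CPM in iHep cells and had no read at 48 h, at least 16353-fold higher (adjusted p = 0.00036). Spink1, a trypsin inhibitor secreted by pancreas and gut, lay at 3516, 5424, 2789.6, 2755 and 7125 CPM in iHep cells and at 0.0656 and 0.41 CPM at 48 h, against 0.318 CPM in Hep (log2 fold change 14.19 ± 1.03, adjusted p = 3.3e-05, between 13.39 and 15.95 without 1 of the 48 h libraries). Mucus and gut products stood beside Ahsg and the Serpina1 genes among the 15 largest rises, and none of Smgc, Clca1 and Spink1 reached 1 CPM in Hep. On the loss side stood Penk, an enkephalin precursor, at 0.539, 0.896, 0.507, 0.298 and 0.11 CPM in iHep cells and at 1795 and 1814 CPM at 48 h (-11.85 ± 0.50, adjusted p = 3.8e-06). The guanylate cyclase subunit Gucy1a1 and the kainate receptor Grik1 had no read in the 5 iHep libraries and averaged 30.0 and 17.9 CPM at 48 h, at least 1446-fold and 864-fold lower (adjusted p = 0.00015 and 0.00024). Untreated MEF held less than cells at 48 h, with 383 CPM of Penk, 2.3 CPM of Gucy1a1 and 1.43 CPM of Grik1.

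Gains and losses were then set beside fibroblasts and hepatocytes. Of the 1227 rises of at least 4-fold, 690 reached 10 CPM in iHep cells, and 173 of these were under 1 CPM at 48 h. Among the 690, 341 were at 10 CPM or more in Hep, 151 lay between 1 and 10 CPM there and 198 were under 1 CPM, and 225 were under 1 CPM in MEF. Over the 341, the iHep level had a median of 79.9% of the Hep level, and 147 stood above it. These genes were picked for a rise and a level of 10 CPM or more in iHep cells, which favours high percentages. The liver lists, not picked by iHep level, had a median of 0.147%, and the Hep libraries were of another library type. Of the 1833 falls of at least 4-fold, 915 had 10 CPM or more at 48 h, 771 of these had 10 CPM or more in MEF, and 251 were under 1 CPM in iHep cells. Among the 915, 422 were under 1 CPM in Hep and 223 at 10 CPM or more. iHep replicate 1, of the other library type, lay above both 48 h libraries for 680 of the 690 rises and below both for 907 of the 915 falls.

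The course with Foxa3 was set against that with Foxa1, whose iHep replicates 4 to 6 (Rn7sk at 47.7 to 69.4 CPM) and 2 libraries at 48 h are of the same library type. The courses share no library. The difference between the change with Foxa3 and the change with Foxa1 was tested for 15540 genes over 12 libraries, and 4 passed (0.0257%) by edgeR's quasi-likelihood test, with 1440 at an unadjusted p under 0.05 and 146 called by DESeq2. Ace, angiotensin-converting enzyme, lay at 189.8, 239.9, 290.5, 248 and 188 CPM in Foxa3 iHep cells and at 20.9 and 20.3 CPM in Foxa3 cells at 48 h. In Foxa1 cells it lay at 23.3, 38.2 and 33.8 CPM at the iHep stage and at 15.7 and 16.8 CPM at 48 h. The change with Foxa3 exceeded that with Foxa1 by 2.53 ± 0.30 on the log2 scale (adjusted p = 0.02). Dab1, a cytoplasmic adaptor of reelin receptors, had reads in 1 Foxa3 iHep library (0.0362 CPM) and 0.961 and 1.01 CPM in Foxa3 cells at 48 h, whereas Foxa1 cells held 10.1, 18.7 and 8.81 CPM at the iHep stage and 1.22 and 1.69 CPM at 48 h (difference -9.60, adjusted p = 0.0061; -11.08 without iHep Foxa3 replicate 4). Khdrbs3, an RNA-binding protein, and Smarca1, a chromatin remodeller, differed by -1.86 and -1.53 (adjusted p = 0.02 each). None of the 4 calls is firm. Without single libraries the count ranged from 0, without either Foxa1 library at 48 h, to 162, without iHep Foxa3 replicate 6. A p that misses the threshold does not show that the courses were alike, and the median standard error of the difference was 0.38 on the log2 scale.

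**Figure D5:**
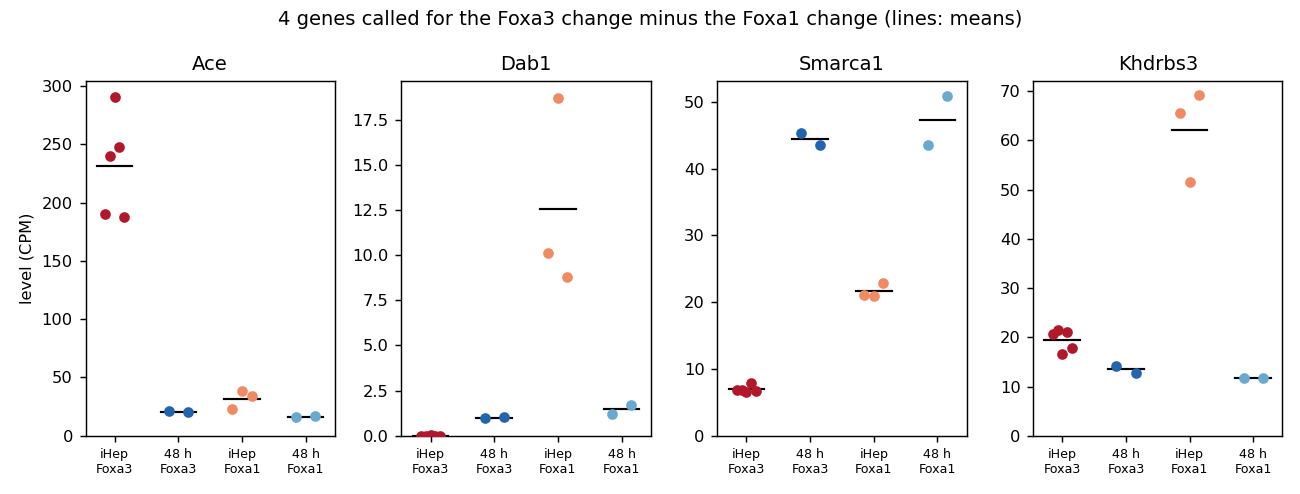
Levels of the 4 genes whose change differed between Foxa3 and Foxa1 cells in CPM on a linear axis that starts at 0, 1 point a library and a line at each mean, with Foxa3 iHep, Foxa3 48 h, Foxa1 iHep and Foxa1 48 h from left to right. Ace stands at 188 to 290.5 CPM in the 5 Foxa3 iHep libraries and at 23.3 to 38.2 CPM in the 3 Foxa1 iHep libraries, and Dab1 shows the opposite order at the iHep stage.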

How the data were processed

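RNA was made into libraries with the Illumina TruSeq stranded mRNA kit after RNeasy Micro extraction, per the labels' protocols. Reads were aligned to mm9 with BWA 0.7.12, per the submitters' processing notes; for the quantifier and the annotation, the sources used here give no name. The deposited tables give the authors' expected counts and FPKM per transcript. Expected counts were summed per gene and rounded (30710 transcripts to 23760 genes; 30190 transcripts were named from RefSeq, 181 from GENCODE, and 339, with 0.61% to 3.21% of the reads, had no name). Near-identical genes and overlapping genes may share reads.

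iHep replicates 2 to 6 were compared with both 48 h libraries in edgeR 4.0.16 (R 4.3.3) with TMM scaling, filterByExpr and a robust quasi-likelihood test with Benjamini-Hochberg adjustment over 15164 genes; 5 residual degrees of freedom remained and the common dispersion was 0.0892. The difference from Foxa1 cells was a contrast over 12 libraries. Levels are CPM with sample SD, counts scaled to gene-assigned reads and adjusted by TMM factors over all 28 libraries. Fold changes used TMM over the libraries of their own fit, and bounds used unadjusted totals. Depth was 25580687 to 43637300 reads. For a group without reads, a floor of 3 counts over the group gave a bound, which covers counting error only. On data simulated for this comparison, 17% of 2-fold and 60% of 4-fold changes were recovered, and 7.2% of calls were unchanged genes. Only 100 of 15164 genes were changed at each fold there, whereas 49.0% of genes were called in the real comparison. The adjusted p depends on the share of changed genes, so these percentages do not give the recovery in the real comparison. Alternatives were DESeq2 1.42.0 size factors and Wald test, no filter, the most abundant transcript, limma 3.58.1 on log2(FPKM + 1) of the deposited FPKM, 14 or 28 libraries, iHep replicate 1 added, a replicate block, and leaving out each library.

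The named genes were the introduced factors, the 15 largest rises and the 15 largest falls among called genes whose groups do not overlap and whose higher mean is at least 10 CPM, per list at most 4 called genes ranked by adjusted p plus at most 4 ranked by mean CPM, and for the difference from Foxa1 cells the 8 largest in each direction with a mean of at least 10 CPM in a group; the text gives a choice of these. Gata4, Prox1, Cebpa, Cebpb, Ppara, Pltp, Dpp4, Lama3, Sox2, Col18a1, Timp3, Plod2, Snai1, Zeb1, Zeb2, Twist1, Ccn2, Axin2, Cdkn1a, Tgfbr1, Smad3, Asl, Nags, Cldn1, Cldn7, the further Hox genes and other members outside that rule were chosen after their values were seen. Some members are counted but not reported here by name. The members and lists were chosen with earlier results of these data known. Promoter windows are from RefSeq tables in GRCm38.p6, not in the mm9 build of the files.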

Additional observations from a re-analysis of the deposited data

Results flagged for a closer look

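Among 290 genes looked at, 29 had 1 iHep library far from the other 4 by Dixon's criterion. In 7 of these genes the other 4 libraries held no read, so that a few reads in 1 library were enough to meet it. Of the 274 genes with reads in at least 2 iHep libraries, 22 met it (8.03%), and chance alone does so in about 5% of groups of values without such ties. iHep replicate 3 was the high library in 10 of the 29, with Col10a1 at 1433 CPM, Fos at 723 CPM, Junb at 583 CPM, Jun at 120.2 CPM, Ephx1 at 663 CPM, Prss8 at 8.92 CPM, Hoxd10 at 3.10 CPM, Klf2 at 2.85 CPM, Csf1r at 0.192 CPM and Erg at 0.096 CPM. It was the low library for Wnt5a (22.9 CPM). Replicate 2 was low for Serpinf2 (29.9 CPM) and Apoc2 (38.6 CPM) and high for Col7a1 (24.3 CPM) and Tyrobp (0.0337 CPM). Replicate 4 was high for Aspn (0.398 CPM), Dkk2 (0.0724 CPM), Ugt2b34 (0.0362 CPM) and Dab1 (0.0362 CPM). Replicate 5 was high for Apob (273 CPM), Alb (162 CPM), Smarca1 (7.96 CPM), Scarb1 (63.7 CPM), Agtr2 (0.133 CPM) and Lum (0.0663 CPM). Replicate 6 was high for Vim (1246 CPM), Hhex (15.6 CPM), Hoxd12 (0.293 CPM) and Eln (0.256 CPM).

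The change with Foxa3 differed from the change with Foxa1 in the test of the difference for 4 genes, by 2.53 on the log2 scale for Ace, by -9.60 for Dab1, by -1.86 for Khdrbs3 and by -1.53 for Smarca1.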

How the results depend on the processing

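Leaving out 1 library gave between 4131 and 8319 called genes, 1774 to 4011 of them higher and 2357 to 4308 lower in iHep cells, with the lowest counts without a 48 h library (4139 and 4131 genes without replicate 1 or 2, 1779 and 1774 higher, 2360 and 2357 lower). With at least 4-fold changes the range was 885 to 1238 rises and 1495 to 1883 falls. limma on log2(FPKM + 1), a scale that understates changes of low genes, called 559 rises and 754 falls of at least 4-fold. Under the other alternatives the count of called genes lay between 6079, with iHep replicate 1 added, and 8526, with 14 libraries in the fit. DESeq2's Wald test called 8143 genes and shared 99.1% of the edgeR calls in direction. Of 248 called genes among the 290 looked at, 180 kept their call in every alternative, 26 lost it with all 28 libraries in the fit and 12 with iHep replicate 1 added. Igfbp3, with a log2 fold change of -1.58, was the 1 gene of the 248 that turned sign, to 0.19 with the replicate block, where it was not called (adjusted p = 0.89). Col10a1, at 0.47 and not called, lay between -0.74, without iHep replicate 3, where it was called (adjusted p = 0.03), and 0.70 when 1 library was left out. The difference from Foxa1 cells called 146 genes by DESeq2 and 0 to 162 when 1 library was left out. Fits that leave out a library hold fewer samples; for the other counts that moved, the cause was not tested.

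Replicate numbers are shared across stages by number only and pair no samples. A fit of all 28 libraries with the replicate block called 6241 genes, 2903 higher and 3338 lower, and held 72.7% of the calls; 44 of the 248 genes were not called there, Col4a1 and Fn1 among them. With 5 residual degrees of freedom and 2 libraries at 48 h, 2-fold changes were often not called in the simulated data, where few genes were changed. Counting noise limits genes with few reads.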

Other observations

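Some genes differed widely among the 5 iHep libraries. Msln, mesothelin, lay at 1163, 631, 132, 134 and 117 CPM in iHep replicates 2 to 6, Ano1, a chloride channel, at 177, 104, 24.4, 9.78 and 19.6 CPM, and Wnt4 at 440, 379.8, 90.3, 114 and 40.9 CPM, so replicates 2 and 3 were highest for all 3 genes. Apob, the main protein of low-density lipoprotein, lay at 11.4, 39.6, 66.6, 273 and 14.4 CPM, with replicate 5 highest. Col10a1, a collagen of growth plate cartilage, lay at 151, 1433, 169.7, 251 and 189.7 CPM, with replicate 3 highest.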
